A study of Mus musculus with 30 samples.

Results

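Lysosomal hydrolases and membrane proteins were examined in the livers of diabetic mice fed sebacic acid, a dicarboxylic fatty acid with a chain of medium length. The set was chosen by gene symbol as 33 genes: 9 proteases, 9 glycan-degrading enzymes (8 glycosidases and a sulfamidase), 6 lipid hydrolases and lipid carriers, 6 membrane proteins and 3 subunits of the proton pump. The arrays named a probe for 32 of the 33 genes, and 30 of them had a probe detected on at least 15 of 30 arrays, among 7905 genes with a detected probe. Gla (alpha-galactosidase A) was above background on 0 arrays and Sgsh (heparan sulfamidase) on 1 array, so that only a limit is known for their signal, and Npc1 was not analysed here. All 30 animals were male db/db mice (BKS.Cg-m+/+Leprdb/J 000642), obese and diabetic through the loss of the leptin receptor. They were 6 to 8 weeks old before the period of habituation that preceded the diets. The 15 control mice (Ctrl) ate chow alone, and the 15 treated mice (SA_15%) ate for 6 weeks the same chow with 77.6 g sebacic acid per kg food, about 9 g/kg body weight per day by the labels and 15% of energy. Both groups thus shared the leptin receptor defect, no lean mice entered the comparison, and each mouse gave 1 liver on 1 Illumina bead array.

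Lysosomes are acidic organelles in which hydrolases break down proteins, glycans, nucleic acids and lipids delivered by endocytosis, phagocytosis and autophagy. A membrane of heavily glycosylated proteins holds the contents in, and a V-type ATPase pumps protons into the lumen. Many lysosomal genes carry in their promoters an E-box element to which the transcription factor TFEB and its relatives bind. In liver both hepatocytes and Kupffer cells, the resident macrophages, are rich in lysosomes.

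The promoters are shown because this element is common to many of the genes while their responses differed. RefSeq promoter windows of 300 bases (250 before and 50 after the start, build GRCm38.p6) were found for 28 of the 33 genes, in some cases for several starts. The 6 letters CACGTG, read on both strands, stood in the windows of 13 of these 28 genes (46.4%) against 8.09% of all 27025 genes of the table and 12.3% of the 6466 detected genes with a window. The 8 letters GTCACGTG, which contain the former, stood in 10 of 28 (35.7%) against 2.55% of all genes and 4.96% of detected genes. Among lists measured for comparison below, they stood in 4.76% of other lysosomal hydrolases (1 of 21) and 11.1% of other pump subunits (1 of 9). The shares were 35.7% for other membrane and transport proteins, 44.4% for sorting genes, 11.8% for autophagy genes and 5.88% for TFEB and nutrient sensing genes. Below, GTCACGTG or its reverse complement is in capitals, and each sequence runs in the direction of transcription.
Lgmn (higher in SA_15%), chr12:102439106-102439173, minus strand: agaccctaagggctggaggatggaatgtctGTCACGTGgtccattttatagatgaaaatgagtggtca
Ctsd (lower), chr7:142387888-142387955, minus strand: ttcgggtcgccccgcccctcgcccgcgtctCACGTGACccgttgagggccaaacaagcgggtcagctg
Mcoln1 (lower), chr8:3500416-3500483, plus strand: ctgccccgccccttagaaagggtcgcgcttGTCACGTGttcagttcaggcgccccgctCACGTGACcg
Lamp1 (no call), chr8:13159103-13159170, plus strand: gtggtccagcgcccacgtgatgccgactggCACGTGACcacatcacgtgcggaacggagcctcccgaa
Cd63 (higher, no CACGTG in its window), chr10:128909225-128909344, plus strand: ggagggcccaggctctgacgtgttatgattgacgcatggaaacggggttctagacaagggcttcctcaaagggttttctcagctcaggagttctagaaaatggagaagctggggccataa
Genes with the 8 letters were found in every class of response. Of the genes with a window, 1 of 7 that were higher, 2 of 3 that were lower and 5 of 16 without a call held GTCACGTG, as did both genes that were not detected. None of the 4 lipid hydrolases and carriers with a window held either motif. A match of letters is a description of the sequence and shows no binding.

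Probe signals are given as quantile normalized log2 intensity, and differences as the fold change SA_15%/Ctrl with its 99.9% interval. Mean array intensity had a median of 396 (314 to 451) for Ctrl and of 415 (327 to 498) for SA_15% livers. A gene was called at an adjusted p under 0.05 in limma. The deposited intensities carry their background, which compresses the fold change of dim probes. Of 10 hepatocyte markers 7 were detected, among them Cyp2e1 (14.66 ± 0.12 in Ctrl, SD, n = 15), Apoa1 (14.59 ± 0.17) and Ttr (14.51 ± 0.15), while the probes of Alb, Tat and Fgb fell short of the detection rule with 14, 2 and 0 arrays.

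Cd63 rose most and several hydrolases rose slightly, while the majority of the lysosomal genes was not called. Of the 30 detected genes 8 were higher (Cd63, Lgmn, Asah1, Psap, Hexa, Gusb, Npc2 and Ctsl), 3 were lower (Scarb2, Mcoln1 and Ctsd) and 19 were not called by limma. The called share, 36.7%, was close to the 36.6% of all 11329 detected probes. By direction, 26.7% of the genes were higher against 17.1% of all detected probes, and 10.0% were lower against 19.4%. The larger share of higher genes rests on the scaling: with median centring alone 6.67% of the genes were higher against 6.79% of all detected probes. The smaller share of lower genes remained, 13.3% against 27.1%. Under that scaling the median log2 differences were -0.054 and -0.066. The median log2 difference was 0.055 over the 30 genes and -0.01 over all detected probes, and no test of the list was made. In liver RNA, a change in the number of cells of a type and a change in RNA per cell cannot be told apart. No gene of the set had groups free of overlap, beside 0.574% of all detected probes.

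**Figure D1:**
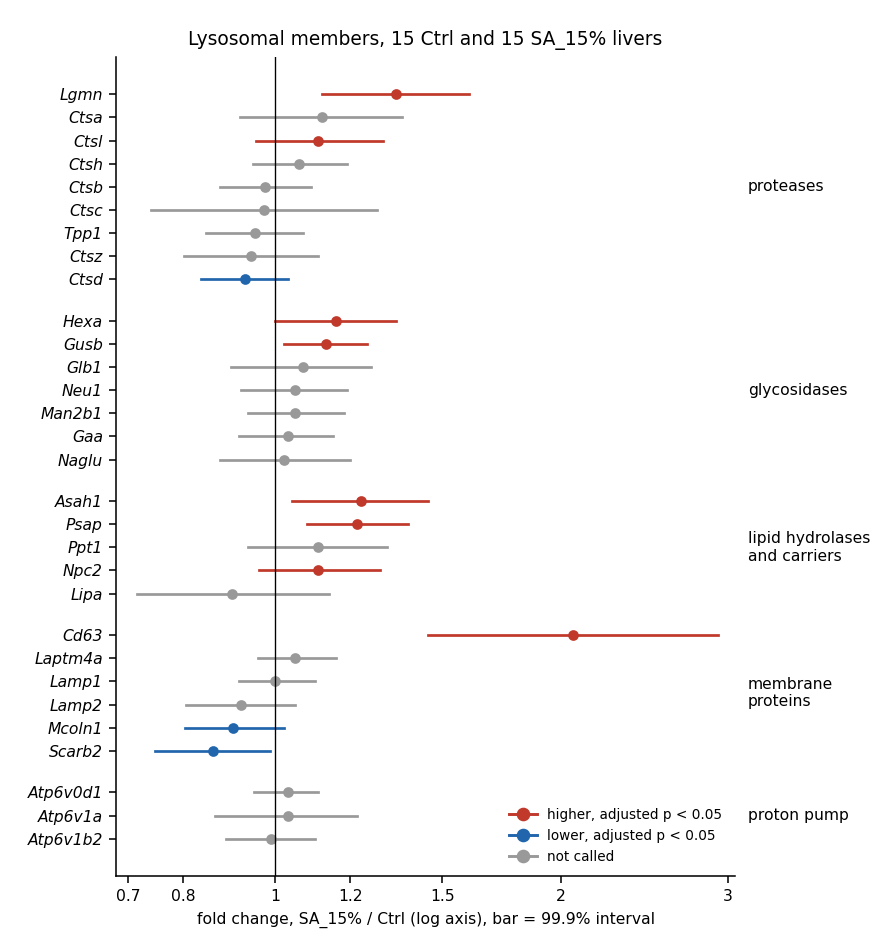
Fold change SA_15%/Ctrl (log axis) of 30 lysosomal genes with 99.9% intervals, n = 15 livers per group, ordered within functional classes. Red and blue mark genes higher and lower at an adjusted p under 0.05 in limma. Cd63 stands at 2.06-fold, the next gene, Lgmn, at 1.34-fold, and the proton pump genes lie between 0.989 and 1.03.

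Among the 9 proteases, Lgmn rose, Ctsl rose slightly and Ctsd fell slightly. Lgmn encodes legumain, an asparaginyl endopeptidase that also processes cathepsins. Its log2 signal ran from 7.94 (median 8.31) to 8.81 in Ctrl livers and from 8.56 (median 8.75) to 9.05 in SA_15% livers. All 15 treated livers lay above the Ctrl median and 4 above every Ctrl liver, so the groups overlapped in part. The difference was 1.34-fold (1.12 to 1.6) with an adjusted p of 2.7e-05 in limma. Ctsl, the cysteine protease cathepsin L, was 1.11-fold higher (0.954 to 1.3, adjusted p = 0.048 in limma) with 11 of 15 treated livers above the Ctrl median. Ctsd, the aspartic protease cathepsin D, was at 0.929-fold (0.835 to 1.03) with the same adjusted p of 0.048 in limma and 12 of 15 treated livers below the Ctrl median. With background correction (neqc) the log2 difference of Ctsl was 0.26 against 0.15 and its call was lost (adjusted p = 0.053), and that of Ctsd was -0.20 against -0.11 (adjusted p = 0.036 in limma). Both of these probes were dim, with means of 6.61 ± 0.10 for Ctsd and 6.55 ± 0.13 for Ctsl in Ctrl livers (SD, n = 15), and both calls were lost when any of 20 of the 30 mice was left out, as listed in the closing section.

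The other 6 proteases were not called. Ctsb, the cysteine protease cathepsin B, had log2 signals from 12.84 (median 13.04) to 13.38 in Ctrl and from 12.85 (median 13.05) to 13.23 in SA_15%, nearly the same range. Its fold change was 0.976 (0.874 to 1.09). Ctsc, which activates the serine proteases of immune cells by removing dipeptides, varied most among mice of this class, from 9.54 to 10.75 in Ctrl and from 9.58 to 10.6 in SA_15%, with a fold change of 0.974 (0.74 to 1.28). The aminopeptidase Ctsh stood at 1.06, the carboxypeptidases Ctsa and Ctsz at 1.12 and 0.942, and the tripeptidyl peptidase Tpp1 at 0.952. Their adjusted p-values ran from 0.11 to 0.31 in limma. Ctsa, also the protective partner of beta-galactosidase and neuraminidase, had 4 detected probes. The dimmer probes of Ctsa differed by 0.06, 0.18 and -0.02 on the log2 scale, and only the one at 0.18 passed (adjusted p = 0.0065 in limma).

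Of the 7 detected glycosidases, 2 rose (28.6%, beside 17.1% of all detected probes) and 5 were not called. With median centring alone both calls were lost (Hexa and Gusb, adjusted p = 0.3 and 0.48 in limma). Hexa, the alpha subunit of beta-hexosaminidase A, which degrades GM2 ganglioside, ran from 8.45 (median 8.85) to 9.27 in Ctrl and from 8.96 (median 9.04) to 9.38 in SA_15%. All 15 treated livers exceeded the Ctrl median and 1 exceeded every Ctrl liver. The difference was 1.16-fold (1.0 to 1.34, adjusted p = 0.0046 in limma). Gusb, beta-glucuronidase, ran from 9.11 (median 9.37) to 9.62 in Ctrl and from 9.36 (median 9.53) to 9.69 in SA_15%, with 14 of 15 treated livers above the Ctrl median. It was 1.13-fold higher (1.02 to 1.25, adjusted p = 0.0016 in limma). Its 3 probes gave nearly the same log2 difference, 0.17, 0.18 and 0.17.

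The uncalled glycosidases all had fold changes slightly above 1. They were Glb1 (beta-galactosidase, 1.07), Man2b1 (alpha-mannosidase, 1.05), Neu1 (sialidase, 1.05), Gaa (acid alpha-glucosidase, the enzyme of lysosomal glycogen, 1.03) and Naglu (which degrades heparan sulfate, 1.02), with adjusted p-values from 0.24 to 0.7 in limma. For Gaa the 99.9% interval was 0.916 to 1.15. Under median centring without quantile normalization Gaa, Man2b1, Neu1 and Naglu turned to log2 differences of -0.07, -0.07, -0.05 and -0.04, so that their direction rests on the scaling.

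Lipid hydrolases and lipid carriers gave 3 increases among 5 detected genes. Asah1, acid ceramidase, which splits ceramide into sphingosine and fatty acid, ran from 9.52 (median 9.87) to 10.39 in Ctrl and from 9.94 (median 10.1) to 10.44 in SA_15%. Every treated liver was above the Ctrl median, yet 13 of 15 lay within the Ctrl range, which 1 Ctrl liver extended to 10.39. Asah1 was 1.23-fold higher (1.04 to 1.45, adjusted p = 0.00074 in limma), and its second detected probe differed by 0.23 on the log2 scale (adjusted p = 0.0064). Psap, the precursor of the saposins that present sphingolipids to their hydrolases, had the least overlap of the set by the count of treated livers beyond the Ctrl range. Its log2 signal ran from 12.1 (median 12.46) to 12.68 in Ctrl and from 12.56 (median 12.76) to 12.9 in SA_15%, with 13 of 15 treated livers above every Ctrl liver. The difference was 1.22-fold (1.08 to 1.38, adjusted p = 3.5e-05 in limma).

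Npc2, which carries cholesterol out of the lysosomal lumen, was 1.11-fold higher (0.962 to 1.29, adjusted p = 0.036 in limma) with 12 of 15 treated livers above the Ctrl median, a call lost when any of 10 mice was left out. Ppt1, a thioesterase that removes palmitate from proteins, was at 1.11-fold (0.935 to 1.31) and was not called, with an adjusted p of 0.086 in limma. Lipa, lysosomal acid lipase, which hydrolyses cholesteryl esters and triglycerides, ran from 10.29 (median 10.5) to 10.88 in Ctrl and from 9.67 (median 10.51) to 10.76 in SA_15%. The medians were alike, while 5 treated livers fell below every Ctrl liver. Most of these 5 livers had consecutive replicate numbers. Over deviations from the group means, Lipa also rose with array mean intensity (r = 0.549, permutation p = 0.0013, adjusted 0.013). Its fold change was 0.901 (0.715 to 1.14, adjusted p = 0.21 in limma).

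The membrane proteins moved in both directions and held the gene that changed most. Cd63, a tetraspanin of late endosomes, lysosomes and exosomes, ran from 6.95 (median 7.17) to 7.96 in Ctrl and from 7.5 (median 8.48) to 9.15 in SA_15%. All 15 treated livers were above the Ctrl median and 10 were above every Ctrl liver. It was 2.06-fold higher (1.45 to 2.93, adjusted p = 7.9e-07 in limma). All 3 probes of Cd63 were higher, by 1.04, 0.75 and 0.56 on the log2 scale with adjusted p-values of 7.9e-07, 3.8e-07 and 3.6e-06. Scarb2 (LIMP-2), the receptor that carries glucocerebrosidase to lysosomes, ran from 8.66 (median 9.06) to 9.37 in Ctrl and from 8.66 (median 8.77) to 9.04 in SA_15%. None of the 15 treated livers reached the Ctrl median, although 14 lay within the Ctrl range. Scarb2 was at 0.859-fold (0.746 to 0.988, adjusted p = 0.0026 in limma).

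Mcoln1, a calcium and iron channel of the lysosomal membrane, ran from 7.07 (median 7.42) to 7.65 in Ctrl and from 7.08 (median 7.23) to 7.48 in SA_15%. It was at 0.903-fold (0.804 to 1.02, adjusted p = 0.014 in limma), with 13 of 15 treated livers below the Ctrl median. Lamp1, the most widely used lysosomal marker, ran from 11.88 (median 12.02) to 12.24 in Ctrl and from 11.92 (median 12.03) to 12.16 in SA_15%. Its fold change was 1.0 with an interval of 0.916 to 1.1. Laptm4a, a small transmembrane protein of late endosomes, was at 1.05 (0.959 to 1.16).

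Lamp2, the partner of Lamp1 whose splice forms serve different kinds of autophagy, depended on the probe. The brightest of its 4 probes was at 0.919-fold (0.805 to 1.05, adjusted p = 0.073 in limma), with 14 of 15 treated livers below the Ctrl median. The platform annotation assigns 2 probes to each of 2 transcripts. Those of the first differed by -0.12 and -0.23 on the log2 scale, the latter with an adjusted p of 0.001 in limma, and those of the other transcript by -0.002 and 0.06. The log2 ratio of the first pair to the other pair, set to a mean of 0 in Ctrl, ran from -0.34 to 0.48 in Ctrl and from -0.58 to 0.10 in SA_15%, where it was lower by 0.21 ± 0.08 (SE, n = 15 per group). A two-sided permutation test with 100000 resamples gave p = 0.011, for a comparison chosen after the values were seen.

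**Figure D2:**
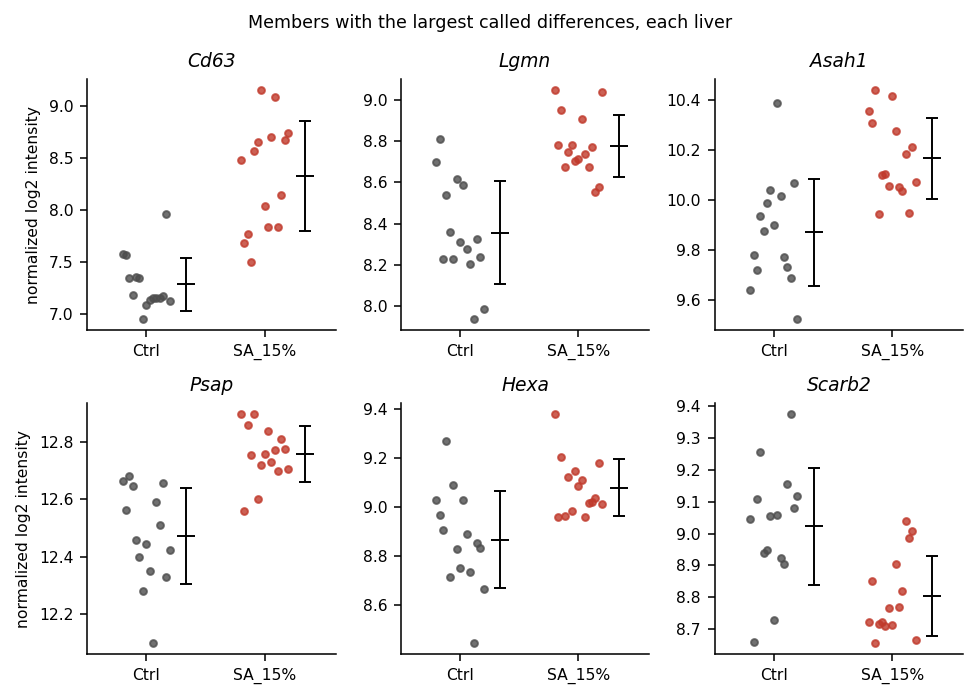
Normalized log2 intensity of 6 lysosomal genes in each of 15 Ctrl (grey) and 15 SA_15% (red) livers, with mean and SD at the right of each group. Psap shows 13 treated livers above all Ctrl livers, Cd63 spreads from 7.5 to 9.15 in treated livers, and no treated liver reaches the Ctrl median of Scarb2.

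None of the 3 proton pump genes of the set was called. Atp6v0d1, a subunit of the membrane sector, ran from 10.28 (median 10.47) to 10.58 in Ctrl and from 10.38 (median 10.49) to 10.58 in SA_15%. Its fold change was 1.03 (0.95 to 1.11). Atp6v1a and Atp6v1b2, the catalytic and the non-catalytic nucleotide-binding subunits of the peripheral sector, were at 1.03 (0.863 to 1.22) and 0.989 (0.888 to 1.1). Of the 4 probes of Atp6v0d1, 1 dimmer probe passed at a log2 difference of 0.18 (adjusted p = 0.026 in limma).

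The remaining pump subunits, measured for comparison, did not share this. Of 12 detected, 6 rose, 2 fell and 4 were not called. Among those that rose were Atp6ap2 (the prorenin receptor, an accessory subunit, log2 difference 0.24), Atp6v0e (0.24) and Atp6v1e1 (0.16), with adjusted p-values of 0.00014, 0.00016 and 0.0013 in limma. Atp6v0a1, an isoform of the subunit that anchors the pump, fell by 0.32 (adjusted p = 2.5e-07), and Atp6v0b fell by 0.13 (adjusted p = 0.01 in limma). The called share of this list was 66.7%, beside 36.6% of all probes.

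The spread among the mice of a group was compared as well. The SD among mice was smaller in SA_15% for 23 of 30 lysosomal genes and larger for 7, with a median SD ratio of 0.75 against 0.928 over all detected genes, of which 60.2% had the smaller SD in SA_15%. Cd63 had the largest ratio of the set, 2.07 (SD 0.53 in SA_15% and 0.26 in Ctrl, n = 15 each), followed by Lipa at 1.71. A limma test of the absolute deviations from the group median called 0 of the 30 genes and 9 of all 11329 probes (0.0794%). At an unadjusted p under 0.05 it marked 2 of the 30, Cd63 (p = 0.003, adjusted 0.53 in limma) and Psap (p = 0.048, adjusted 0.92 in limma), and 610 probes in all. In simulated data this test recovered none of 200 probes with a 3-fold SD ratio, so the count of 0 says little.

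**Figure D3:**
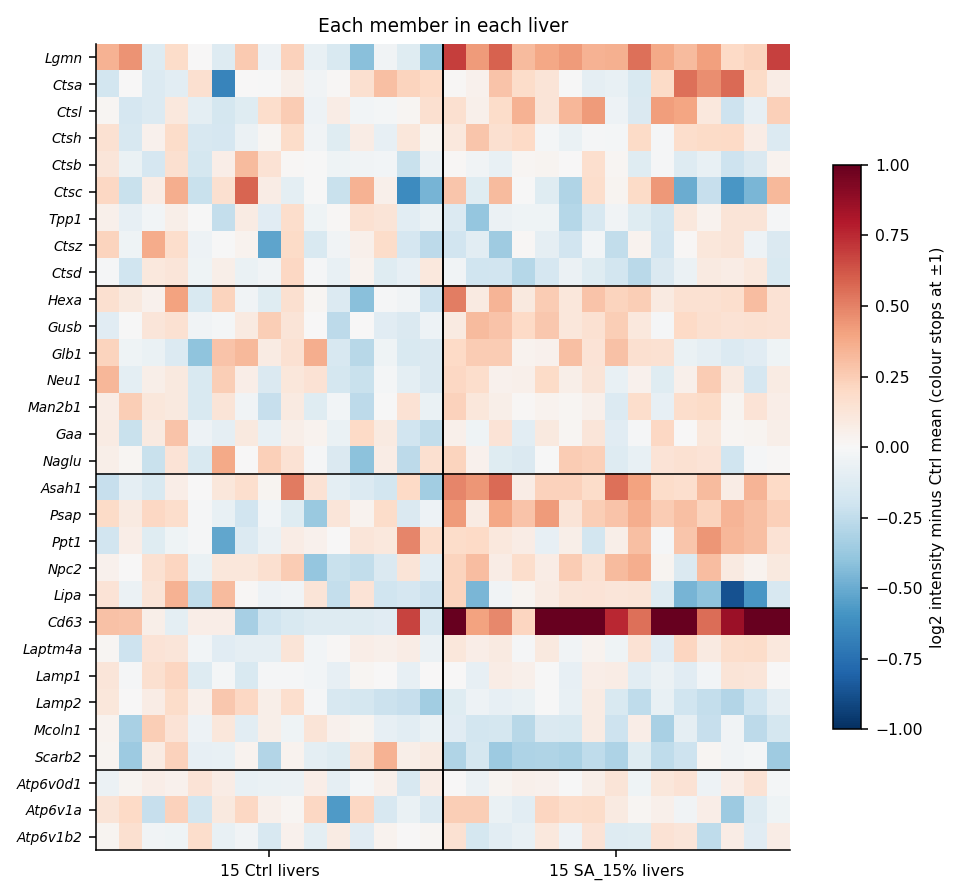
Log2 intensity of each lysosomal gene in each liver minus its Ctrl mean, with 15 Ctrl livers at the left and 15 SA_15% livers at the right and lines between the classes. Colour stops at 1 on the log2 scale. Cd63 is strongly raised in most but not all treated livers, and Lipa is low in a few of them.

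Several macrophage genes were higher in SA_15% livers as well. Of 20 Kupffer cell and macrophage markers 17 had a named probe, 15 were detected, 7 rose and none fell. The called share was 46.7%, all of it higher, beside 36.6% of all detected probes called and 17.1% higher. The mean log2 signal of the 15 ran from 6.9 to 8.15 in Ctrl (median 7.38) and from 7.3 to 8.31 in SA_15% (median 7.68). The leading ones were Vsig4, a complement receptor of Kupffer cells (log2 difference 0.61, adjusted p = 0.0058 in limma), Laptm5, a lysosomal membrane protein of blood cells (0.42, adjusted p = 0.014) and Lyz2, a lysozyme of myeloid cells (0.48, adjusted p = 0.018). Cd5l was above background on 0 arrays. Of 8 markers of lipid-associated and recruited macrophages, 3 met the detection rule. Lgals3, galectin-3, ran from 7.1 (median 7.55) to 8.91 in Ctrl and from 7.92 (median 10.35) to 11.73 in SA_15%, a log2 difference of 2.37 (adjusted p = 1.3e-06 in limma). Gpnmb, a lysosomal glycoprotein of such cells, was above background in 3 Ctrl and 14 SA_15% livers and so met the rule through the treated group, which is why it is not counted as a change. Cd9 rose by 0.46 on the log2 scale (adjusted p = 7.5e-07 in limma), while Trem2 was detected on 4 arrays and Itgax and Ccr2 on 0. Of 9 detected sinusoidal endothelial markers 4 rose (44.4%), with list means from 7.78 to 8.19 in Ctrl and from 7.92 to 8.31 in SA_15%. Of 4 red blood cell genes 3 rose (75.0%), with list means from 8.84 to 9.54 and from 9.24 to 9.95. Over all detected probes 17.1% were higher and 19.4% lower. Of the 7 hepatocyte markers 2 rose (28.6%) and 3 fell (42.9%), and no call fell on the 5 stellate cell, 1 cholangiocyte and 1 lymphocyte markers detected. The part of endothelial and red blood cells in the lysosomal differences was not tested.

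From mouse to mouse, Cd63 varied with Lgals3 and Gpnmb among treated livers but not with Vsig4, and Lgmn varied with Vsig4 in both groups. Each lysosomal gene was related to Lgals3 and Vsig4 in either group and to Gpnmb in SA_15% livers, 150 relations chosen after the values were seen, with permutation tests of 100000 resamples adjusted over the 150. In SA_15% livers Cd63 followed Lgals3 (r = 0.967, rho = 0.932, n = 15) and Gpnmb (r = 0.924, rho = 0.846), with permutation p of 1e-05 for both values of r, the smallest these resamples allow, and adjusted p of 5e-04. For the rank correlations the permutation p was 1e-05 (adjusted 0.0015) and 1.3e-04 (adjusted 0.0097). Without the 2 livers farthest from the median of the macrophage gene r was 0.951 and 0.881. Gpnmb was above background in only 3 Ctrl livers and was not related to the genes there. Its relation with Cd63 thus has no Ctrl counterpart. In Ctrl livers Cd63 and Lgals3 gave r = 0.343 and rho = 0.336 (permutation p = 0.2 and 0.22, adjusted 0.56 and 0.6). The difference between the groups in this relation was not tested. With Vsig4, Cd63 gave r = -0.2 in Ctrl livers (permutation p = 0.49, adjusted 0.8). In SA_15% livers r was -0.296 (permutation p = 0.28, adjusted 0.65), and -0.632 without 2 livers.

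Lgmn followed Vsig4 in both groups. In SA_15% livers r was 0.901 and rho 0.799 (permutation p = 1e-05 and 4.9e-04, adjusted 5e-04 and 0.018), and in Ctrl livers r was 0.791 and rho 0.782 (permutation p = 4.9e-04 and 8.9e-04, adjusted 0.015 and 0.027). Without the 2 farthest livers r was 0.844 and 0.686. In Ctrl livers Lgmn also followed Lgals3 (r = 0.793, rho = 0.818, permutation p = 2e-04 for each, adjusted 0.0075 and 0.01, and r = 0.74 without 2 livers), whereas in SA_15% livers r was -0.0318 and rho -0.0268 (permutation p = 0.91 and 0.93, adjusted 0.98 and 0.97). The other 145 relations did not pass.

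**Figure D4:**
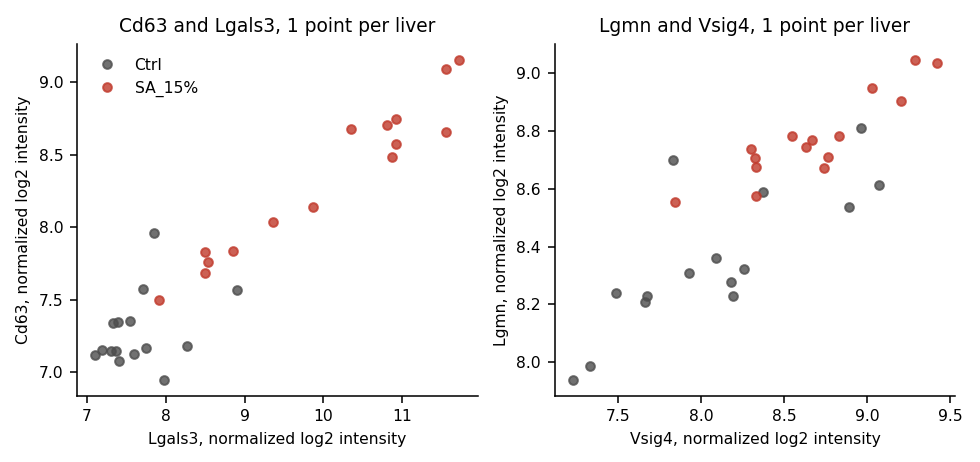
Left, Cd63 against Lgals3, and right, Lgmn against Vsig4, as normalized log2 intensity with 1 point per liver (15 Ctrl grey, 15 SA_15% red). Cd63 rises with Lgals3 among the treated livers (r = 0.967), and Lgmn rises with Vsig4 within Ctrl (r = 0.791) and within SA_15% (r = 0.901).

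Both genes were then examined with the signals of macrophage marker genes in the model. Which cells of the liver expressed Lgals3 and Cd9 was not tested. With the mean of the 15 Kupffer cell and macrophage markers as a covariate, the log2 difference of Cd63 was 1.09 (adjusted p = 2.8e-06 in limma) and that of Lgmn 0.28 (adjusted p = 3.5e-05). Under it 7 genes were called higher. Npc2 (0.11, adjusted p = 0.18), Ctsd (-0.07, adjusted p = 0.2) and Mcoln1 (-0.12, adjusted p = 0.06 in limma) no longer passed, and Lamp2 was called lower (-0.17, adjusted p = 0.018). With the mean of Lgals3 and Cd9 as a covariate, added after the data were seen, the log2 difference of Cd63 was 0.05 (adjusted p = 0.86 in limma) and that of Lgmn 0.26 (adjusted p = 0.17). Psap kept its call at 0.28 (adjusted p = 0.037), while Asah1 at 0.33 and Gusb at 0.22 no longer passed (adjusted p = 0.071 and 0.057 in limma). Ctsh (0.24, adjusted p = 0.038) and Atp6v1b2 (-0.22, adjusted p = 0.028) gained a call. This covariate ran from 6.86 to 7.87 in Ctrl and from 7.48 to 9.62 in SA_15%, so that the groups overlapped in it only between 7.48 and 7.87, and calls over all detected probes fell from 4141 to 996.

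How the arrays were scaled decided several small differences. Under median centring without quantile normalization, 20.1% of all calls were higher against 46.9% after quantile normalization, and the median over all detected probes moved from -0.01 to -0.066. Cd63 (log2 difference 0.97, adjusted p = 1.9e-05) and Lgmn (0.32, adjusted p = 0.0079 in limma) stayed higher and Scarb2, Mcoln1 and Ctsd stayed lower. Asah1, Psap, Hexa, Gusb, Npc2 and Ctsl lost their calls, at log2 differences of 0.18, 0.15, 0.11, 0.06, 0.07 and 0.13, and Lamp2 was called lower.

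**Figure D5:**
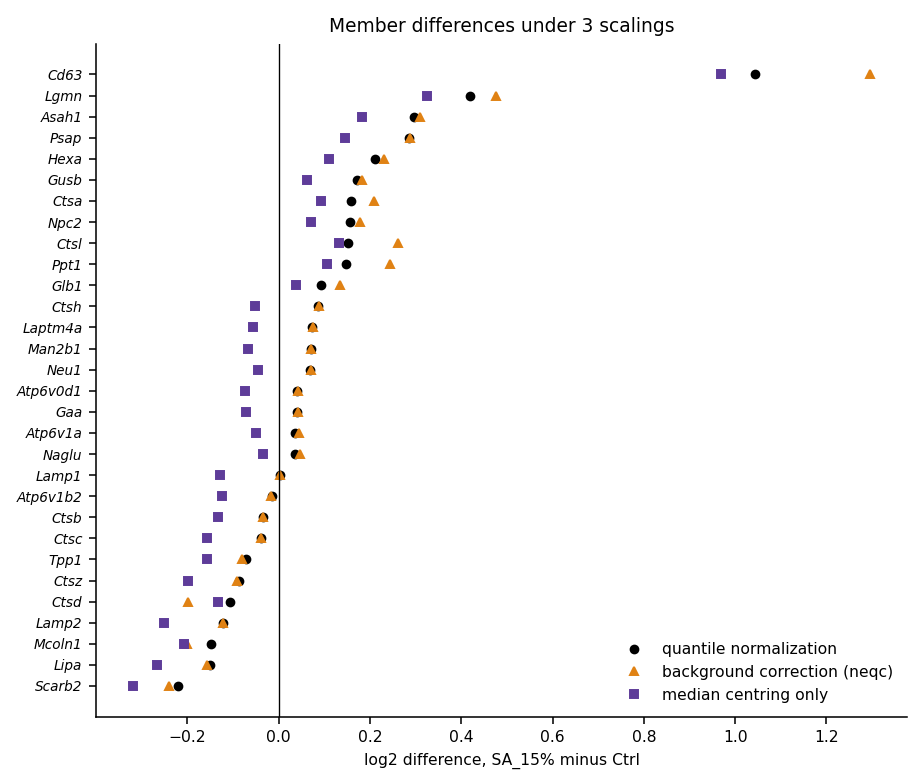
Log2 difference SA_15% minus Ctrl of 30 lysosomal genes after quantile normalization, after background correction with neqc, and after median centring only. Cd63 and Lgmn are highest under all 3, and median centring moves most genes to the left.

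Array brightness went with several uncalled genes. Over deviations from the group means of all 30 livers, Lamp2, Lipa and Ctsb rose and Ppt1 and Ctsa fell with the mean intensity of the array, 5 of 30 relations that passed at an adjusted p under 0.05. For Lamp2 r was 0.694 and rho 0.664 (permutation p = 4e-05 and 1.3e-04, adjusted 0.0012 and 0.0019, r = 0.617 without the 2 farthest arrays), and for Ppt1 r was -0.666 and rho -0.74 (permutation p = 8e-05 and 4e-05, adjusted 0.0012 for both, r = -0.638 without 2 arrays). With array brightness as a covariate, added after the data were seen, Ctsa (0.20), Ppt1 (0.19), Lamp2 (-0.16) and Lipa (-0.20) gained a call. Ctsd, Ctsl and Npc2 fell just short of the threshold with differences of nearly the same size, -0.11, 0.14 and 0.15 (adjusted p = 0.054, 0.069 and 0.051 in limma), and that of Cd63 was 1.03.

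The wider lysosomal and autophagy genes were measured for comparison, and their calls were examined under quantile normalization only. Of 19 other detected hydrolases 5 rose and 1 fell (31.6% called, under the 36.6% of all probes). Arsa (arylsulfatase A, log2 difference 0.34, adjusted p = 1.2e-05), Dpp7 (a dipeptidyl peptidase, 0.46, adjusted p = 6.7e-05) and Prcp (a carboxypeptidase, 0.33, adjusted p = 0.00022 in limma) rose, and Gm2a, the activator protein that serves Hexa, fell by 0.35 (adjusted p = 6.8e-05). Hexa and its activator thus moved in opposite directions. Of 12 other membrane and transport proteins 6 were called, a larger share than the 36.6% of all probes: 4 rose, led by Cln3, the gene of juvenile Batten disease (0.18, adjusted p = 0.00015 in limma), the peptide transporter Abcb9 and Ostm1, the partner of a chloride transporter, and 2 fell, the lipid transporter Abca2 (fell by 0.25, adjusted p = 0.00013) and Mfsd8. Cstb, cystatin B, a cytosolic inhibitor of cathepsins, ran from 11.4 (median 11.55) to 11.63 in Ctrl and from 11.84 (median 12.0) to 12.38 in SA_15%. Its groups did not overlap, as was so for 0.574% of all detected probes, and its log2 difference was 0.52 (adjusted p = 1.9e-09 in limma). Of the 4 cathepsin inhibitors listed, Cst3 was the only other one detected and was not called (0.09, adjusted p = 0.1 in limma).

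Genes of sorting and of autophagy moved in both directions. Of 11 genes of sorting to lysosomes 2 rose and 3 fell (45.5% called, against 36.6% of all probes). Sort1 (sortilin, log2 difference 0.45, adjusted p = 1.2e-07 in limma) and the adaptor subunit Ap1b1 rose. The adaptors Gga3 (by 0.15, adjusted p = 0.00032 in limma) and Gga1 fell. Gnptg, a subunit of the enzyme that makes the mannose 6-phosphate tag, fell as well. Neither mannose 6-phosphate receptor was called, M6pr at 0.04 and Igf2r at -0.02 (adjusted p = 0.49 and 0.74 in limma). Of 20 autophagy genes 7 fell and 3 rose, 35.0% and 15.0% beside 19.4% and 17.1% of all probes. Map1lc3b, the LC3 protein of the autophagosome membrane, fell by 0.41 (adjusted p = 1.9e-06), Atg5, which helps to join LC3 to lipid, fell by 0.23 (adjusted p = 1.9e-05) and Wipi1, which acts where autophagosomes form, fell by 0.33 (adjusted p = 5.4e-05 in limma). Sqstm1, the cargo receptor p62, rose by 0.43 (adjusted p = 0.00032 in limma), as did Vps18, which tethers vesicles to lysosomes (0.17, adjusted p = 0.0015), and Becn1 (0.12, adjusted p = 0.041 in limma), a subunit of the kinase complex that starts autophagosomes. Tfeb, Mitf and Tfec were above background on 0 arrays, while Tfe3, of the same family, was detected on all 30 and was not called (log2 difference -0.07, adjusted p = 0.34 in limma). Of 8 detected genes of the TFEB and nutrient sensing list 4 were called, again a larger share than the 36.6% of all probes: Flcn, Mtor and Rragc rose by 0.17, 0.14 and 0.11 and Lamtor1 fell by 0.15 (adjusted p = 0.014, 0.036, 0.04 and 0.02 in limma).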

How the data were processed

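Liver RNA of 15 Ctrl and 15 SA_15% mice was hybridized to MouseRef-8 v1.1 arrays. The authors deposited, for 25697 probes, the uncorrected mean intensity together with the p-value of its detection over negative controls. Quantile normalized intensity, deposited in another table, served as an alternative. The submitters' processing notes name GenomeStudio 2009.2. Signals were quantile normalized and log2 transformed, probes whose detection p-value was under 0.05 on 15 or more arrays were kept, and groups were compared with limma 3.58.1 in R 4.3.3 (Benjamini-Hochberg over 11329 probes). The brightest detected probe stood for a gene. Platform gene names were updated through Entrez identifiers (23978 probes with 1 symbol, 1719 without). All members were named, and of each other list up to 3 called genes per direction with the smallest p. M6pr, Igf2r, Tfe3, Apoa1, Cst3 and genes named as not detected were chosen after their values were seen. The members and lists were chosen with earlier results of these data known. Arrays within a group correlated at 0.988 to 0.996. On data simulated for this comparison on 11329 probes, 40 of 50 changes of 1.2-fold and 50 of 50 of 1.3-fold were recovered with 8 false calls. Chip identity was not given in the sources used here, so no chip block was fitted. Alternatives covered scaling, filters, tests, variance priors, covariates and leaving out each mouse. The labels give 1 liver per mouse.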

Additional observations from a re-analysis of the deposited data

How the results depend on the processing

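The number of arrays and the uncorrected background limit the small differences, and dim probes (Ctsd, Ctsl, Ppt1) have compressed folds. Of the settings tried for the 30 genes, 2 were called higher under median centring and 4 with the lipid-associated macrophage covariate, where 1 was called lower and 1090 probes in all. That covariate holds Gpnmb, detected mainly in SA_15%, and without Gpnmb 2 genes were higher, 1 lower and 996 probes called. At the study's cut-offs (unadjusted p under 0.001 and a fold of 1.3, over all probes) 2 genes were higher, 0 lower and 475 probes called. The study's global error assessment, from which its p-values came, was not repeated. The labels do not name the replicate numbers as pairs, and the main fit did not pair the mice. Deviations of same-numbered mice correlated from -0.0696 to 0.391 (median 0.163), and 4 of 15 Ctrl mice correlated best with their own number. Whether the number carries a factor shared by both groups was not tested. With the replicate block 9 genes were higher, 3 lower and 4459 probes called, Ctsd and Ctsl losing a call (adjusted p = 0.084 and 0.067 in limma) and Ctsa, Ppt1 and Lamp2 gaining one (0.046, 0.025 and 0.03). Leaving out each mouse gave 6 to 8 higher and 2 to 4 lower. The call of Ctsd was lost without any of Ctrl 1, 3, 4, 5, 6, 8, 9, 10, 12, 15 and SA_15% 2, 3, 4, 5, 7, 8, 9, 10, 11, 15, that of Ctsl without any of Ctrl 1, 2, 3, 5, 6, 7, 10, 12, 13, 14 and SA_15% 1, 3, 4, 5, 6, 7, 10, 11, 12, 15, and that of Npc2 without any of Ctrl 10, 11, 12, 13, 15 and SA_15% 2, 6, 8, 9, 12. Lamp2 gained a call without Ctrl 13, 14, 15 or SA_15% 7, and Ppt1 without Ctrl 14 or SA_15% 7. The cause of these changes was not tested.

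Among called genes only Ctsl turned sign, to -0.004 with the Lgals3 and Cd9 covariate. Median centring gave Ctsh -0.05, Gaa -0.07, Man2b1 -0.07, Naglu -0.04, Neu1 -0.05, Lamp1 -0.13, Laptm4a -0.06, Atp6v0d1 -0.07 and Atp6v1a -0.05. The Kupffer cell covariate gave Atp6v1a -0.03, the lipid-associated macrophage covariate Gaa -0.02, Naglu -0.14 and Atp6v1a -0.08 (without Gpnmb -0.02, -0.17 and -0.12), and the brightness covariate Lamp1 -0.004. Leaving out 1 mouse moved Ctsc to between -0.08 and 0.004, Lamp1 to between -0.01 and 0.02, Atp6v1a to between -0.004 and 0.06 and Atp6v1b2 to between -0.03 and 0.001. Of 1380 values over genes and settings, 1233 kept direction and call, 87 lost a call, 28 gained one and 32 turned sign.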
